A study of Mus musculus with 8 samples.

Results

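The respiratory chain and ATP synthase genes were chosen by name. They are all genes whose symbol in the platform annotation starts with Nduf, Uqcr, Atp5, Cox4, Cox5, Cox6, Cox7 or Cox8, and each is represented by the probe set that names it alone and has the highest mean over the arrays. This gave 80 of the 12393 named genes, with 39 of complex I, 8 of complex III, 16 of complex IV and 17 of complex V. The 39 complex I genes include 5 assembly factors, and Ndufa4, which structural work places in complex IV.

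The RNA came from ventral prostates of 20 week old FVB mice and was hybridised to Affymetrix arrays, 4 labelled wild type and normal and 4 labelled transgenic with mouse prostatic intraepithelial neoplasia, a lesion of the gland's epithelium. The transgene, by the series' own account, is an active form of the PI3-kinase catalytic subunit p110 beta. The promoter that drives it is not given in the sources used here. The labels do not state that the arrays stand for different animals, and the p-values therefore reflect only how much these samples vary, part of which may be technical. All values are log2 RMA values, and a difference is transgenic minus wild type on that scale.

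The respiratory chain passes electrons from NADH and succinate to oxygen and pumps protons across the inner mitochondrial membrane. Complex I oxidises NADH, complex III passes electrons from ubiquinol to cytochrome c, complex IV (cytochrome c oxidase) passes them on to oxygen, and complex V, the ATP synthase, uses the proton gradient to make ATP. The genes here are all nuclear; the catalytic subunits of complex IV and the membrane core of complex I are encoded by mitochondrial DNA. In normal prostate epithelium much citrate is secreted rather than oxidised, and PI3-kinase signalling is best known for raising glucose uptake and glycolysis.

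Nuclear genes of this kind are often driven from GC-rich promoters bound by the nuclear respiratory factor NRF1 or by the ETS factor GABP. RefSeq promoter windows of assembly GRCm38.p6, from 250 bases before each gene's start to shortly after it, were matched for 67 of the 80 genes. The stretches before the start are shown for the genes with the largest changes described further on: the complex IV genes Cox6a1 and Cox6b1, the ATP synthase gene Atp5h and the isoform pair Cox8a and Cox8b. They are printed 5′ to 3′ on the gene's own strand, which is the minus strand for all 5, and capitals mark a match to one of the motifs named after them.
Cox6a1, chr5:115348959-115349208: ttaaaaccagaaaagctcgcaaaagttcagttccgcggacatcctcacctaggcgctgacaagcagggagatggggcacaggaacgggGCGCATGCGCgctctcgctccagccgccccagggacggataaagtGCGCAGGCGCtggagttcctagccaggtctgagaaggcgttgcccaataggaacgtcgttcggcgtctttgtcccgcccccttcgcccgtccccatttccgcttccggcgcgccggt
Cox6b1, chr7:30626115-30626364: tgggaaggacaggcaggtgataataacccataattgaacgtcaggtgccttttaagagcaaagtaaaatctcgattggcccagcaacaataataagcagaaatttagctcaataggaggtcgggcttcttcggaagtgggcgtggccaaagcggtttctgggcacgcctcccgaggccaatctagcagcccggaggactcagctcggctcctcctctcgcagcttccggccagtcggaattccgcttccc
Atp5h, chr11:115419920-115420169: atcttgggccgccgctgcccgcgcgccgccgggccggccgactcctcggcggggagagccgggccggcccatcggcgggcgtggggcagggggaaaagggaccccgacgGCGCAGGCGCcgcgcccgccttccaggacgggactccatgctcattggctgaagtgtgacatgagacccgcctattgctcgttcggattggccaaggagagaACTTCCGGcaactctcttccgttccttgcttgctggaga
Cox8a, chr19:7217617-7217866: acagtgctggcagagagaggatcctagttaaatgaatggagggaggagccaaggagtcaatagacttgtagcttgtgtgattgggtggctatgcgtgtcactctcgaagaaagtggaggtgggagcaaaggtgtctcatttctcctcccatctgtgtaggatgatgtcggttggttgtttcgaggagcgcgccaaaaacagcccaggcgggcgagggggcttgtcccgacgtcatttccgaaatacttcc
Cox8b, chr7:140900447-140900696: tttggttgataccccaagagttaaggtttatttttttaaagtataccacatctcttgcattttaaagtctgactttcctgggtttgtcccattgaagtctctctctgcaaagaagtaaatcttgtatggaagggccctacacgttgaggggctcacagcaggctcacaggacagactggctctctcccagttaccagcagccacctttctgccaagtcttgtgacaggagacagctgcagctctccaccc

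The NRF1 motif, GCGCA followed by any base and GCGC, was searched on both strands over the whole window, as were the others. It was found in 20.83% of the 72 windows of these genes and in 4.6% of all 32851 windows. The Cox6a1 stretch holds 2 matches, which begin 162 and 117 bases before the start, and the Atp5h stretch holds 1, beginning at 141 bases. The ETS motif CCGGAAGT was in 6.94% of these genes' windows and 3.89% of all, and the Atp5h stretch holds it 39 bases before the start on the other strand. The Cox8a window also holds the ETS motif, but not wholly within the bases shown. The YY1 motif AAGATGGCG was in 8.33% against 1.4%, and the motif of the estrogen-related receptors, TCAAGGTCA, in 1.39% against 0.42%. No 2 of these motifs share letters in the stretches shown. The median GC content was 58.0% in these genes' windows and 52.7% in all windows; it was 47.2% in the Cox8b stretch and 52.8% in that of Cox8a. NRF1 matches were in 6 of 36 complex I genes with a window, 1 of 5 of complex III, 1 of 11 of complex IV and 6 of 15 of complex V. They were in 2 of the 9 matched genes that rose in the comparison that follows. A match is a description of the letters in the window only.

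In the comparison of transgenic with wild type prostate, 11 of the 80 genes rose and 0 fell in the limma fit (adjusted p under 0.05, adjusted over all 22626 probe sets), beside 5.99% of all named genes that rose and 4.98% that fell. At an unadjusted p under 0.05, 25 were higher and 0 lower, beside 10.7% of all named genes higher and 12.1% lower. By complex, 7 of the 16 complex IV genes rose, against 2 of 39 of complex I, 0 of 8 of complex III and 2 of 17 of complex V. At an unadjusted p under 0.05, 2 of the 8 complex III genes were higher and 0 lower, to be read against the same 10.7% and 12.1%. With array weights, which count noisier arrays less, the counts were 9 of 16 for complex IV, 8 of 39 for complex I, 3 of 8 for complex III and 6 of 17 for complex V. In that fit 8.77% of all named genes rose. The rises were modest, from 1.29-fold to 1.89-fold. The median log2 fold change was 0.34 for complex IV, 0.22 for complex V, 0.14 for complex I and 0.12 for complex III, beside -0.04 for all named genes. A log2 fold change above 0 was measured for 64 of the 80 genes and for 41.6% of all named genes. Whether the complexes differ from each other was not tested.

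**Figure D1:**
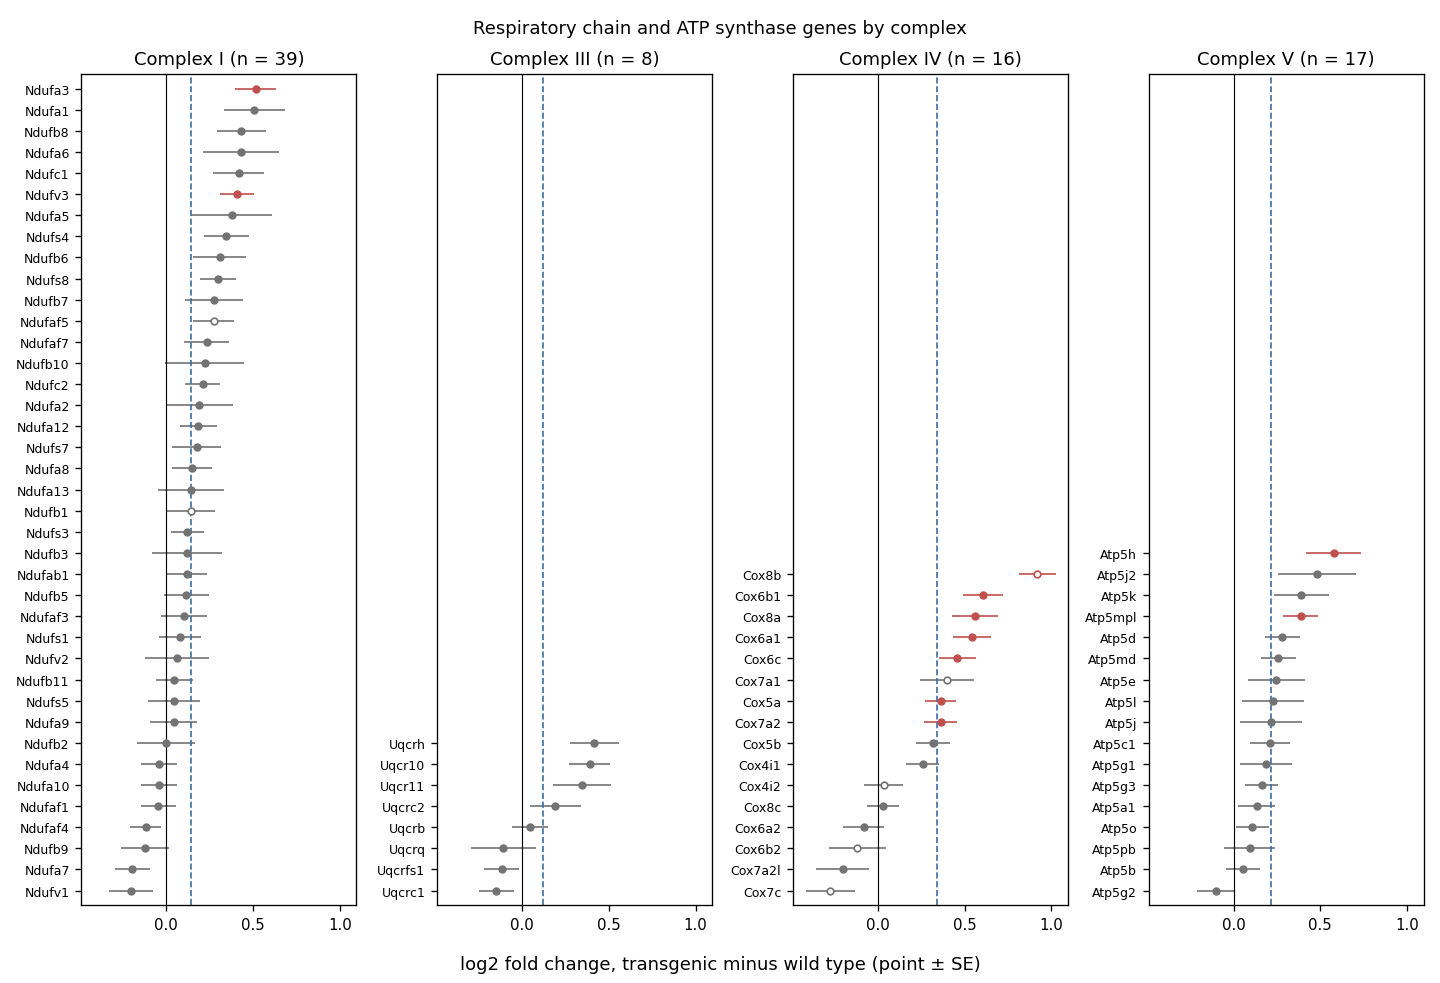
Log2 fold change (transgenic minus wild type, point ± SE) of each of the 80 genes, in a panel per complex; red points passed the limma threshold, open points had both group means below the median of every array, and the dashed line is the panel's median. Red points number 7 of 16 in complex IV and 2 of 39 in complex I, and the medians run from 0.12 in complex III to 0.34 in complex IV.

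The number of genes that rose depended on single arrays. It was 5 without wild type array 2, 3 without wild type array 3, transgenic array 2 or transgenic array 3, 8 without transgenic array 4 and 15 without wild type array 1. Of all named genes, 5.01% rose without wild type array 2 and 4.26% without wild type array 3. The share was 3.99%, 4.46% and 4.58% without transgenic arrays 2, 3 and 4, and 6.62% without wild type array 1. Where 3 of the 80 rose, that was no more than the share of all named genes. Cox6a1, Cox6b1 and Cox8b passed whichever array was left out, and the other 8 missed the threshold without at least 1 array.

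Complex IV genes form the enzyme that reduces oxygen, and the nuclear subunits surround its catalytic core. Cox6b1, a subunit on the cytochrome c side, was at 11.64, 11.53, 11.27 and 11.43 in wild type arrays 1 to 4 and at 11.90, 12.25, 12.12 and 12.03 in transgenic arrays 1 to 4. Every transgenic array lay above every wild type array. It rose 1.52-fold (log2 0.61 ± 0.11 SE, adjusted p = 0.0058), and its 2 probe sets both passed.

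Cox6a1, the form of subunit VIa found outside heart and skeletal muscle, was at 11.89, 11.998, 11.63 and 11.72 in wild type and 12.23, 12.46, 12.42 and 12.29 in transgenic arrays. The groups did not overlap, with wild type arrays 3 and 4 lowest. It rose 1.45-fold, from 11.81 ± 0.17 to 12.35 ± 0.11 (SD, n = 4 each; limma adjusted p = 0.0088), and both of its probe sets passed.

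Cox8a, the widespread form of subunit VIII, was at 10.16, 10.10, 10.06 and 10.17 in wild type and at 10.36, 10.95, 10.89 and 10.53 in transgenic arrays. The wild type arrays were close together and the transgenic ones spread, with arrays 2 and 3 high and array 1 nearest to wild type. It rose 1.47-fold (limma adjusted p = 0.0208); 2 of its 3 probe sets passed, and the remaining one, at a log2 fold change of -0.07, was dim. Without array 2 or array 3 of either group it missed the threshold, at an adjusted p of up to 0.0720.

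Cox6c, the subunit VIc gene, was at 11.03, 10.93, 10.80 and 10.82 in wild type and 11.22, 11.38, 11.56 and 11.25 in transgenic arrays. The groups did not overlap. It rose 1.37-fold (limma adjusted p = 0.0195), and 1 of its 2 probe sets passed. Leaving out wild type array 3, or transgenic array 2 or 3, ended the call, at an adjusted p of up to 0.0680.

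Cox5a encodes a nuclear subunit of the matrix side that is present in all tissues. It was at 11.28, 11.22, 11.13 and 11.12 in wild type and 11.61, 11.49, 11.58 and 11.54 in transgenic arrays, with no overlap and little spread within either group. The rise was 1.29-fold (log2 0.36 ± 0.09 SE, limma adjusted p = 0.0239), and all 3 of its probe sets passed. Only leaving out wild type array 1 or 4 kept the call; each of the other 6 arrays ended it, at an adjusted p of up to 0.0791.

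Cox7a2, the form of subunit VIIa found in liver and most tissues, was at 11.54, 11.57, 11.38 and 11.53 in wild type and 11.84, 11.997, 11.84 and 11.79 in transgenic arrays. The groups did not overlap, and the rise was 1.29-fold (limma adjusted p = 0.0319). Its 2 probe sets both passed. Each of 5 arrays ended the call when left out (wild type 2 and 3, transgenic 2, 3 and 4), at an adjusted p of up to 0.116.

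Cox8b, the heart and skeletal muscle form of subunit VIII, had the largest log2 fold change of the 80 genes. It was at 4.35, 4.56, 4.28 and 4.57 in wild type and 5.30, 5.496, 5.33 and 5.31 in transgenic arrays. All transgenic arrays lay above all wild type arrays, but both group means lay below the median of every array, 5.405 to 5.51, where background can set the value, so its 1.89-fold rise (limma adjusted p = 0.00018) is approximate. It has 1 probe set.

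**Figure D2:**
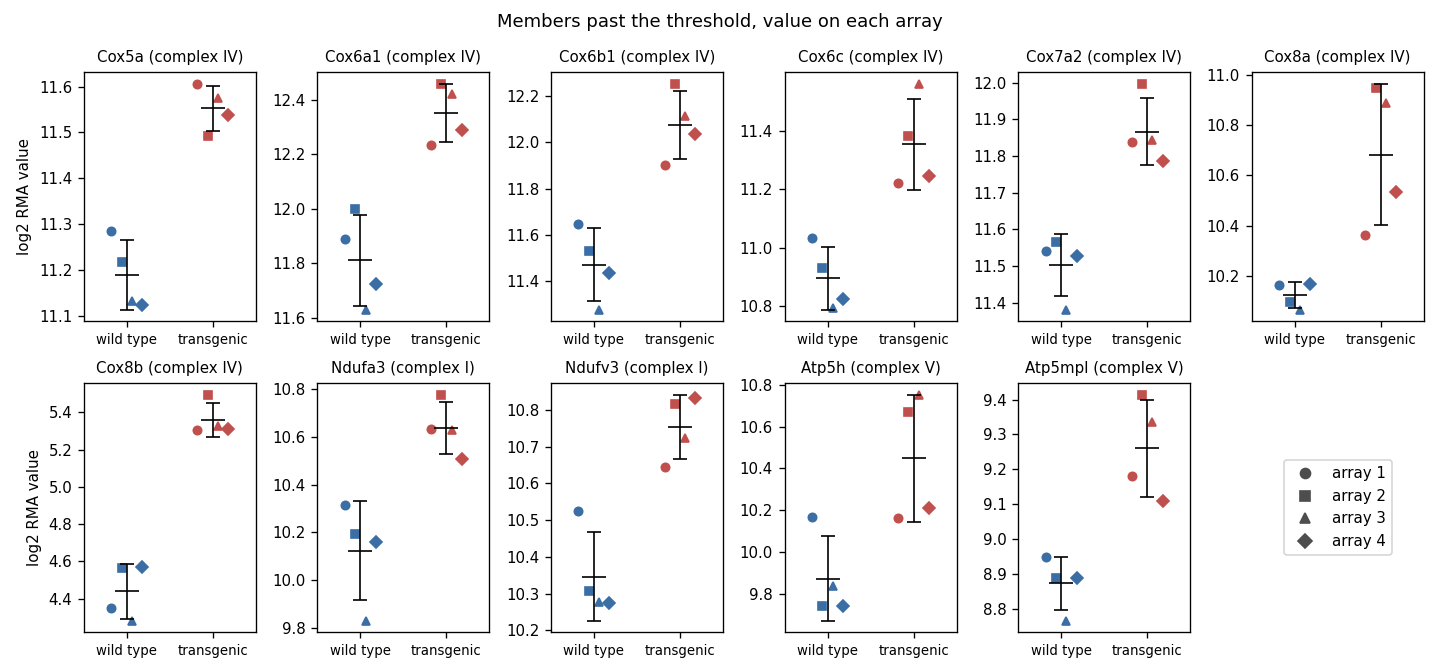
Log2 RMA value of the 11 genes that rose, on each of the 8 arrays (marker shape gives the array number, the line and bar the mean ± SD of 4 arrays); each panel has its own vertical scale. In 10 of the 11 panels every transgenic array lies above every wild type array, and Atp5h is the panel with overlap. The genes were picked by their difference on these same arrays, so this is no further support. Of all named genes, 8.09% separated in this way.

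The other widespread complex IV genes did not pass. Cox4i1, the widespread form of subunit IV, was at 11.62, 11.41, 11.35 and 11.47 in wild type and 11.67, 11.73, 11.78 and 11.71 in transgenic arrays; the groups did not overlap, and the log2 fold change was 0.26 (limma adjusted p = 0.12). Cox5b, which binds zinc, was at 11.01 ± 0.11 and 11.33 ± 0.09 (SD, n = 4 each), also without overlap, and missed the threshold with a limma adjusted p of 0.066, but passed without wild type array 1 (adjusted p = 0.0345). Counting these, the groups did not overlap for 9 of the 16 complex IV genes, beside 8.09% of all named genes with every transgenic array higher. Cox7a2l, whose product helps complexes III and IV join into supercomplexes, was at 10.34, 9.88, 9.71 and 9.84 in wild type and 9.43, 9.93, 9.85 and 9.74 in transgenic arrays, a log2 fold change of -0.20 with overlapping groups. Its 3 probe sets lay between -0.20 and -0.10. Cox7c had a log2 fold change of -0.27, with both means, 4.70 and 4.43, below every array median.

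The 5 tissue forms of complex IV subunits other than Cox8b did not pass, and 3 of them (Cox4i2, Cox6b2 and Cox7a1) had both means below every array median. Cox4i2, a lung form linked to low oxygen, was at 4.61, 4.62, 5.02 and 4.93 in wild type and 4.85, 4.81, 4.86 and 4.803 in transgenic arrays, which overlapped (log2 0.03). Its sign turned without wild type array 1 or 2. Cox6a2, the muscle partner of Cox6a1, was at 5.49, 5.73, 5.93 and 6.005 and at 5.75, 5.62, 5.71 and 5.75, again with overlap (log2 -0.08). Cox7a1, the muscle form of subunit VIIa, was between 3.49 and 3.58 in wild type and at 3.58, 4.43, 3.99 and 3.77 in transgenic arrays. Its log2 fold change of 0.40 passed only where transgenic array 1 was left out, of the alternatives run (limma adjusted p = 0.16 with all arrays and 0.0497 without that one). Cox6b2 and Cox8c, both forms found in testis, were at log2 fold changes of -0.12 and 0.03. Cox6b2 was at 4.12, 4.83, 4.74 and 4.73 in wild type and 4.45, 4.70, 4.19 and 4.61 in transgenic arrays, and Cox8c at 6.98, 7.04, 6.95 and 7.16 and at 7.06, 7.03, 7.03 and 7.14. Neither gene separated the groups.

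As markers of muscle, 13 skeletal muscle genes had an array mean of 4.74 to 4.84 in wild type and 4.50 to 4.59 in transgenic arrays; 0 passed in limma, with 0 higher and 2 lower at an unadjusted p under 0.05, a threshold at which 12.1% of all named genes were lower. For 9 of the 13 both means lay below every array median, among them Myh4, Myh1, Mylpf and Tnnt3, while Acta1 was at 8.19 in wild type and 7.56 in transgenic arrays. The part of muscle in the Cox8b result was not tested.

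Complex I, the NADH dehydrogenase, takes electrons from NADH through its flavin and iron-sulphur subunits. The 6 measured core subunits gave 0 calls, with a median of 0.10, 1 higher and 0 lower at an unadjusted p under 0.05. At that threshold 10.7% of all named genes were higher and 12.1% lower. Ndufv1, which carries the flavin, had the lowest value of complex I, -0.20 (8.2 ± 0.13 in wild type and 7.99 ± 0.23 in transgenic arrays, SD, n = 4 each), and its 3 probe sets lay between -0.30 and -0.20. Ndufs8, an iron-sulphur subunit next to the quinone site, was at 9.33 ± 0.15 and 9.63 ± 0.09 (SD, n = 4 each). Its groups did not overlap, and 1 of its 6 probe sets passed, though not the one used (limma adjusted p = 0.11, or 0.0415 without wild type array 1).

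Of 27 accessory subunits of complex I, 2 rose (7.41%), close to the 5.99% of all named genes. Their median was 0.19. Ndufa3, a small membrane subunit, was at 10.32, 10.19, 9.83 and 10.16 in wild type and 10.64, 10.78, 10.63 and 10.51 in transgenic arrays, with no overlap. It rose 1.43-fold (limma adjusted p = 0.0179), and its 2 probe sets both passed. That call ended when wild type array 3, or transgenic array 2 or 3, was left out, at an adjusted p of up to 0.0679. Ndufv3, a subunit of the NADH-oxidising arm, was at 10.53, 10.31, 10.28 and 10.27 in wild type and 10.64, 10.82, 10.72 and 10.83 in transgenic arrays. It rose 1.33-fold (limma adjusted p = 0.0226), which each of 5 arrays ended when left out (wild type 2 and 3, transgenic 2, 3 and 4), at an adjusted p of up to 0.0798. Wild type array 1 was the highest wild type array for Ndufa3 and Ndufv3 alike, but still below all transgenic arrays.

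Other accessory genes had log2 fold changes as large with more spread between arrays. Ndufa1, an essential membrane subunit encoded on the X chromosome, was at 12.24, 12.05, 11.71 and 11.82 in wild type and at 12.06, 12.77, 12.73 and 12.29 in transgenic arrays, so that transgenic array 1 lay below wild type array 1. Its log2 fold change was 0.51 ± 0.17 (SE, limma adjusted p = 0.099), and it passed without transgenic array 1 (adjusted p = 0.0312). Ndufb8 was at 0.43 (limma adjusted p = 0.088), and passed under 3 of the 18 alternatives, which were cyclic loess normalization, array weights and leaving out wild type array 1. The accessory genes ranged from -0.19 for Ndufa7 to 0.52 for Ndufa3. Ndufa4, of complex IV by structure, was at 10.42, 10.32, 10.45 and 10.60 in wild type and 10.58, 10.41, 10.39 and 10.26 in transgenic arrays, which overlapped fully (log2 -0.04, with the sign turned without wild type array 4 or transgenic array 4). The 5 assembly factors, which help build complex I but are not part of it, ranged from -0.12 for Ndufaf4 to 0.27 for Ndufaf5. They gave 0 calls and 1 higher at an unadjusted p under 0.05, beside 10.7% of all named genes.

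Complex III genes differed in sign. The small subunits Uqcrh, Uqcr10 and Uqcr11 had log2 fold changes of 0.42, 0.39 and 0.35, while the core protein gene Uqcrc1 was at -0.15 and the Rieske iron-sulphur protein gene Uqcrfs1, of the catalytic core, at -0.12. Of these values none passed in limma. Uqcrh, the hinge protein that docks cytochrome c, was at 10.17 ± 0.13 and 10.59 ± 0.29, and its groups met without overlap, wild type array 1 being at 10.287 and transgenic array 1 at 10.289. The groups did not overlap for Uqcr10 (10.31 ± 0.15 and 10.70 ± 0.17; SD, n = 4 each). Uqcrh passed without transgenic array 1 (adjusted p = 0.0386) and Uqcr10 without wild type array 4 (adjusted p = 0.0466). Uqcrb, Uqcrq and Uqcrc2 were at 0.05, -0.11 and 0.19. Probe sets of a gene could disagree: the 2 of Uqcrb were at 0.05 and 0.39, and the 4 of Uqcrq lay between -0.19 and 0.31.

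Of the 17 complex V genes 2 rose and 15 did not pass, beside 5.99% of all named genes that rose. At an unadjusted p under 0.05, 5 were higher and 0 lower, beside 10.7% and 12.1% of all named genes. The log2 fold change was above 0 for 16 of the 17, but Atp5b and Atp5g1 were below 0 with a measure of RNA quality, described further on, as a covariate. Atp5h, the d subunit of the peripheral stalk that holds the catalytic head in place, was at 10.17, 9.74, 9.84 and 9.74 in wild type and 10.16, 10.67, 10.75 and 10.21 in transgenic arrays. Transgenic array 1 thus overlapped wild type array 1. It rose 1.49-fold (log2 0.58 ± 0.16 SE, limma adjusted p = 0.0398), and both of its probe sets passed, but each of 5 arrays ended the call when left out (wild type 2, 3 and 4, transgenic 2 and 3), at an adjusted p of up to 0.129.

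Atp5mpl, a small membrane protein of the synthase, was at 8.95, 8.89, 8.76 and 8.89 in wild type and 9.18, 9.41, 9.34 and 9.11 in transgenic arrays, with no overlap. It rose 1.31-fold (limma adjusted p = 0.0325), a call that ended without array 2 or array 3 of either group (adjusted p up to 0.117) and under quantile normalization (adjusted p = 0.0620). The 5 subunits of the catalytic head gave 0 calls, with 1 higher at an unadjusted p under 0.05, beside 10.7% of all named genes. Atp5a1 and Atp5b, the alpha and beta subunits, were at 0.13 and 0.05. Atp5d, the delta subunit, was at 0.28 with groups that only just did not overlap (10.720 in wild type array 1 and 10.722 in transgenic array 1). Atp5d passed without wild type array 1 (adjusted p = 0.0445), and Atp5b turned to -0.03 under quantile normalization. The median over the 5 membrane subunits was 0.39.

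The proton-carrying c subunit is encoded by 3 genes that yield the same mature protein. Atp5g1 was at 9.75, 9.28, 9.63 and 9.24 in wild type and 9.56, 9.84, 9.86 and 9.38 in transgenic arrays (log2 0.19). Atp5g2 was at 10.38, 10.23, 10.02 and 10.29 and at 10.15, 10.27, 10.07 and 10.02 (log2 -0.10), and Atp5g3 at 11.44, 11.58, 11.39 and 11.55 and at 11.51, 11.66, 11.70 and 11.74 (log2 0.16). The groups overlapped for all 3, and none passed in limma.

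Each gene was centred on its mean over the 8 arrays, and the values were averaged over each complex. Complex IV then separated the groups, and complexes I, III and V did not. Complex IV was at -0.14, -0.11, -0.19 and -0.08 in wild type and 0.03, 0.24, 0.15 and 0.09 in transgenic arrays. Complex I was at 0.15, -0.05, -0.20 and -0.23 in wild type and at -0.15, 0.26, 0.20 and 0.01 in transgenic arrays, and complex V at 0.11, -0.14, -0.22 and -0.21 and at -0.05, 0.26, 0.24 and 0.01. In both, wild type array 1 lay above transgenic arrays 1 and 4. Complex III followed the same order, with wild type array 1 at 0.04 above transgenic array 1 at -0.09. Separation was not particular to complex IV. The array mean of the complex II list, described further on, was 8.18 to 8.36 in wild type and 8.39 to 8.64 in transgenic arrays. Those of the cytochrome c list and of the ATP synthase partners and carriers also separated the groups, and those of the other mitochondrial lists overlapped. These means are a description, with no test.

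**Figure D3:**
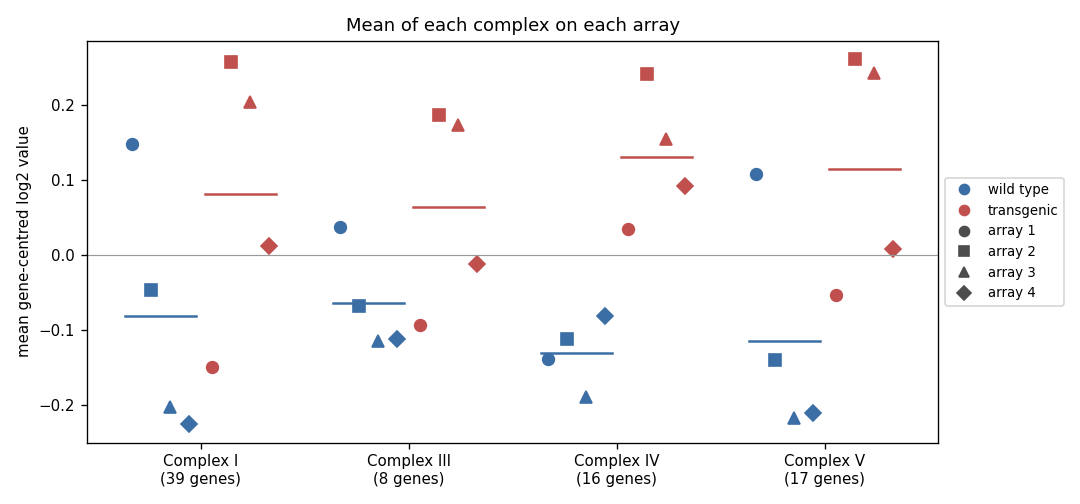
Mean gene-centred log2 value of the genes of each complex on each array (blue wild type, red transgenic, marker shape the array number, line the group mean). Wild type array 1 lies above transgenic array 1 in complexes I, III and V, whereas in complex IV the highest wild type array is at -0.08 and the lowest transgenic array at 0.03.

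Arrays of 1 group thus differed in these genes about as much as the groups did. Over all 80 genes the mean value varied between arrays with an SD of 0.12 within wild type and 0.16 within transgenic, beside a group difference of 0.19. Wild type array 1 was the highest wild type array for 57 of the 80 genes, and 32 of the 39 complex I genes, but for 7 of the 16 complex IV genes. Transgenic array 1 was the lowest transgenic array for 51 of the 80. The mean of complex IV minus that of complex I was -0.29, -0.07, 0.01 and 0.14 in wild type and 0.18, -0.02, -0.05 and 0.08 in transgenic arrays, which overlapped. The separation of complex IV was therefore not seen in its difference from complex I.

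Cell type markers and RNA quality moved with the same groups. Of 9 luminal epithelial markers 6 rose, beside 5.99% of all named genes, among them Elf3 and Cd24a by 1.26 and 1.18. The array mean of the list was 9.77 to 9.91 in wild type and 10.39 to 10.53 in transgenic arrays. For 0 of the 9 did both means lie below every array median. Of 10 basal markers 5 fell, from 6.28 to 6.43 down to 5.80 to 5.96, Krt15 and Krt5 by 1.32 and 1.22; for 4 of the 10 both means lay below every array median. Of 10 smooth muscle markers 3 fell (8.43 to 9.09 against 7.93 to 8.28) and of 10 fibroblast markers 2 fell (6.95 to 8.27 against 6.84 to 7.08), beside 4.98% of all named genes. Those that fell include Pcp4 by 1.20, Smtn by 0.70, Dcn by 1.15 and Pdgfra by 0.74. In both lists 0 markers had a log2 fold change above 0, and the medians were -0.46 and -0.59. At an unadjusted p under 0.05, 5 smooth muscle and 6 fibroblast markers were lower, beside 12.1% of all named genes. Pdgfra kept its call only when wild type array 1 or 4 was the array left out, and otherwise had an adjusted p of up to 0.129. As a measure of RNA quality, 3 prime minus 5 prime values of the control probe sets for Gapdh and beta actin gave a log2 difference of 1.47 ± 0.09 (SD, n = 4) for wild type and 1.12 ± 0.19 (SD, n = 4) for transgenic arrays. Fewer cells of a type and less RNA per cell cannot be told apart in these bulk samples.

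With a stromal score (the mean of the smooth muscle and fibroblast markers) as a covariate, Cox8b alone passed, 1 of 80 beside 2.46% of all named genes. The same was found with the RNA quality measure as a covariate (1 of 80 beside 1.48%). The stromal score was -0.14 to 0.85 in wild type and -0.45 to -0.20 in transgenic arrays, without overlap. The quality measure was 1.34 to 1.56 and 0.97 to 1.40. Either covariate thus largely follows the groups, and its part in the lost calls cannot be told apart from that of the genotype. The log2 fold change of Cox6b1 was 0.59 ± 0.18 (SE) with the stromal score and 0.52 ± 0.20 with the quality measure, against 0.61 ± 0.11 without either. That of Cox6a1 was 0.64 ± 0.17 and 0.38 ± 0.18, against 0.54 ± 0.11, and that of Atp5h 0.43 ± 0.24 and 0.31 ± 0.26, against 0.58 ± 0.16. With the quality measure the median was 0.0220 for complex I, 0.0371 for complex III, 0.26 for complex IV and 0.0463 for complex V. Of the other marker lists, in the fit without a covariate, macrophages gave 1 call of 10, Mrc1, up by 2.27, beside 5.99% of all named genes. The list's median was -0.23, and 3 of the 10 were above 0. The array mean of the list was 5.81 to 6.82 in wild type and 6.30 to 6.41 in transgenic arrays. Endothelium and pericytes (12 genes, of which 8 had both means below every array median), lymphocytes (7 of 8) and adipocytes (4 of 7) gave 0 calls in limma, and 0 at an unadjusted p under 0.05 in either direction. The gene with the smallest p in each was Cspg4 at -0.17, Cd79a at -0.26 and Adipoq at 0.73. Their array means were 4.54 to 5.06, 4.35 to 4.81 and 4.90 to 5.43 in wild type and 4.71 to 4.88, 4.38 to 4.56 and 4.59 to 5.68 in transgenic arrays. The part of these cells in the results was not tested.

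Genes of other mitochondrial lists were measured in the same fit, and no difference between lists was tested. Their counts, here and in the next paragraph, stand beside 5.99% of all named genes that rose and 4.98% that fell. At an unadjusted p under 0.05 the shares of all named genes were 10.7% higher and 12.1% lower. Complex II links the citrate cycle to the chain, and its list of 6 genes includes the assembly factors Sdhaf1 and Sdhaf2. Of these 6 genes Sdhd, a membrane anchor, rose from 8.48 ± 0.09 to 9.14 ± 0.20 (SD, n = 4 each, limma adjusted p = 0.0035). The other 5 did not pass, and the list median was 0.17. The list named cytochrome c holds Cycs and also Cyc1, which encodes cytochrome c1 of complex III but falls outside the naming rule. These genes gave 0 calls in limma and 0 at an unadjusted p under 0.05. Cyc1 was at 0.15, with every transgenic array above every wild type array. Of 9 partners and carriers of the ATP synthase 2 rose, with 3 higher and 1 lower at an unadjusted p under 0.05 and a list median of 0.06. Atpif1, the inhibitor that binds the synthase when it would hydrolyse ATP, went from 8.48 ± 0.38 to 9.48 ± 0.31 (SD, n = 4 each; limma adjusted p = 0.0078). Vdac2, a pore of the outer membrane, rose by 0.72, and each of 5 arrays ended that call when left out (wild type 3 and 4, transgenic 2, 3 and 4), at an adjusted p of up to 0.123.

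Of 23 further assembly factors not named Ndufaf, 1 rose, Cox20, which helps build complex IV, by 0.62. Wild type array 2 and transgenic arrays 2, 3 and 4 each ended that call when left out, at a limma adjusted p of up to 0.0779. Of 7 genes of coenzyme Q synthesis 1 fell, Coq9 by 0.54, and the list median was -0.18. Of 14 regulators of mitochondrial biogenesis 1 rose and 1 fell. Ppargc1b, a coactivator of respiratory genes, rose by 0.62 and lost its call without transgenic array 2 or 4, at an adjusted p of up to 0.0537, and Tfb2m, a mitochondrial transcription factor, fell by 0.43, a call that ended without wild type array 2 or transgenic array 1, 2 or 4, at an adjusted p of up to 0.0682. Of 17 import, chaperone and shape genes 0 passed in limma, with 1 higher and 0 lower at an unadjusted p under 0.05; the smallest p was that of Tomm40, at 0.29. Of 74 mitochondrial ribosomal protein genes 1 rose, Mrpl23 by 0.47, and 2 fell, Mrps6 by 0.85 and Mrpl10 by 0.48, with a median of 0.04. Mrpl23 and Mrpl10 kept their calls only when transgenic array 1 was the array left out, and otherwise had adjusted p of up to 0.135 and 0.129.

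**Figure D4:**
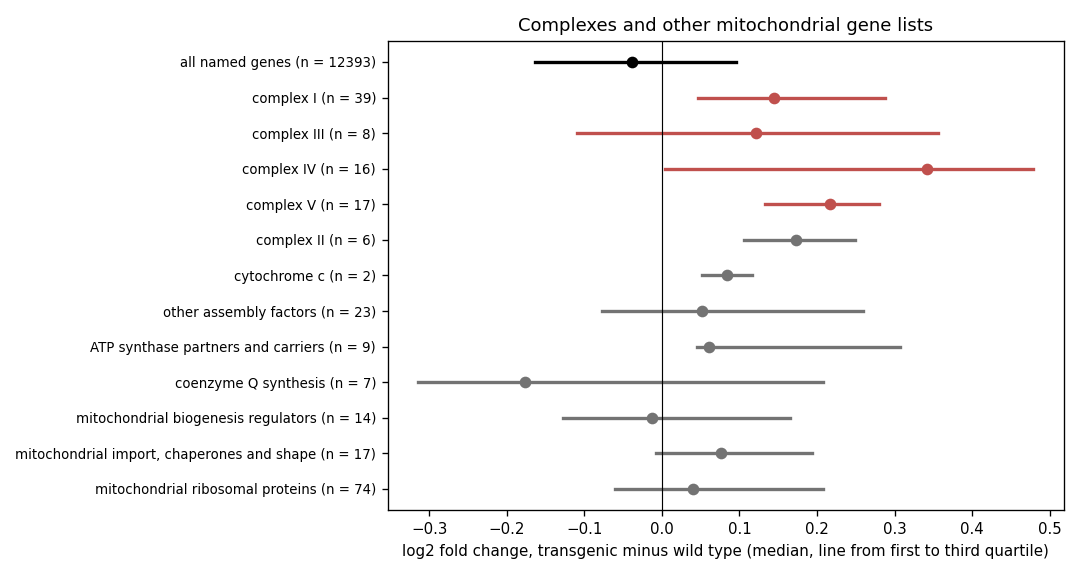
Median log2 fold change (point) and interquartile range (line) of the 4 complexes in red, other mitochondrial lists in grey and all named genes in black; no test is attached. The complex IV median of 0.34 is the highest of the lists shown, and the median of the mitochondrial ribosomal proteins, 0.04, is close to 0.

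A probe set named ND5, a complex I subunit encoded by mitochondrial DNA, was at 10.99, 11.10, 10.63 and 10.55 in wild type and 10.89, 11.44, 11.33 and 11.43 in transgenic arrays. Transgenic array 1 overlapped wild type arrays 1 and 2, and the log2 fold change of 0.46 did not pass (limma adjusted p = 0.105). A further 8 probe sets name 1 of these genes together with another gene and were not used. They include the probe sets naming Ndufa11, Ndufb4 and Ndufs6, which have no probe set of their own; their log2 fold changes were 0.33, 0.08 and 0.18, with a second Ndufb4 probe set at 0.26, and none passed in limma.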

How the data were processed

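The deposited values are log2 RMA values made by the authors (RMA, per the submitters' processing notes, no version given) from 1 Affymetrix array per sample. RMA quantile-normalizes, so a change shared by all transcripts would be removed. Of 22690 probe sets, 64 controls were left out. Each of the others was tested for transgenic minus wild type (n = 4 each) using lmFit and eBayes of limma 3.58.1, run in R 4.3.3, with Benjamini-Hochberg adjustment over 22626 probe sets and a threshold of 0.05. The number of arrays limits the precision. The fit was tested on simulated data.

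Gene names came from GEO's annotation of the platform: 20380 probe sets had 1 symbol, 691 several and 1555 none. Of the 80 genes, 42 had at least 2 probe sets. The members and lists were chosen with earlier results of these data known. Values per array are given for the genes that passed and for tissue isoforms; up to 3 called genes of a pathway list and 2 of a marker list are named, or the gene with the smallest p where none passed; further genes were chosen after their values were seen. Lists are described by counts and medians, with no set test. Promoter windows and their build, GRCm38.p6, are RefSeq's.

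Alternatives were quantile and cyclic loess normalization, array weights, a robust prior with mean-variance trend, dropping the dimmest 40% of probe sets, the mean of a gene's probe sets, leaving out shared probe sets, replicate number as a block, each array left out in turn, and stromal score or RNA quality as covariates. A further one, complex I without assembly factors and Ndufa4, was chosen after seeing the data. The transgene's own gene is not analysed here.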

Additional observations from a re-analysis of the deposited data

Results flagged for a closer look

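Of 58 groups of 4 arrays examined, 3 held an array far from the other 3 of its group (Dixon's criterion, which chance meets in about 1 of 20 groups). Cox8b was at 5.5 in transgenic array 2 and between 5.30 and 5.33 in the other transgenic arrays. For Ndufv3, wild type array 1 gave 10.53, and the other wild type arrays 10.27 to 10.31. For Cox6b2, which is dim, wild type array 1 gave 4.12, and the other wild type arrays 4.73 to 4.83.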

How the results depend on the processing

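The number of respiratory chain and ATP synthase genes that rose was 11. It was 26 with array weights, 5 with the replicate number as a block (Cox6a1, Cox6b1, Cox8a, Cox8b and Ndufa3), and 1 with the stromal score or with the RNA quality measure as a covariate. Leaving out each array gave 3 to 15, beside 3.99% to 6.62% of all named genes. Under the other 6 alternatives it was 10 to 12, beside 5.68% to 8.89% of all named genes. The highest share was with the dimmest 40% of probe sets left out, where 11 of 74 rose. Without shared probe sets it was 11 of 75, beside 5.82%. Of all named genes, 8.77% rose with array weights and 4.83% with the block. The share was 2.46% with the stromal score and 1.48% with the RNA quality measure. No gene of the 80 fell under any of the 18 alternatives. Whether replicate numbers pair the samples cannot be told from deviations within groups of 4 arrays. Those of same-numbered arrays correlated at -0.31, 0.24, -0.20 and 0.33, and not every array correlated best with its own number.

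The complex IV median, 0.34, was 0.26 with the RNA quality measure and 0.27 to 0.37 leaving out each array. The complex V median, 0.22, was 0.0463 with the RNA quality measure and 0.16 to 0.32 leaving out each array. The complex I median, 0.14, was 0.0220 with the RNA quality measure, 0.25 with array weights, 0.0896 under quantile normalization, 0.15 without assembly factors and Ndufa4, and 0.0908 (without wild type array 3) to 0.25 (without transgenic array 1) leaving out each array. The complex III median, 0.12, was 0.0371 with the RNA quality measure, 0.0630 and 0.0697 under quantile and cyclic loess normalization, 0.22 with the mean of a gene's probe sets, and 0.0861 to 0.16 leaving out each array.

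Some genes that did not pass changed sign. Cox4i2, at 0.03, was at -0.0153 with array weights, -0.0049 with the stromal score, and from -0.0283 to 0.108 leaving out each array. With the stromal score Cox6b2 was at 0.21 and Atp5g1 at -0.0158. With the RNA quality measure Cox6a2 was at 0.0294, Cox6b2 at 0.0138, Atp5g1 at -0.0819, Uqcrc1 at 0.0388 and Atp5b at -0.0354. Atp5b was at -0.0328 under quantile normalization, and Ndufa4 between -0.0963 and 0.0114 leaving out each array. The cause was not tested. Of 985 values of 55 named genes under the alternatives, 823 kept direction and side of the threshold, 131 lost the threshold, 17 gained it and 14 changed sign. Signal near background limits Cox8b, Cox7a1, Cox4i2, Cox6b2, Cox7c, Ndufb1 and Ndufaf5, whose means both lay below every array median.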

Other observations

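Deviations from the group mean over all 22626 probe sets were shared between some arrays of different groups. Wild type array 1 correlated with transgenic array 2 at 0.47 and with transgenic array 3 at 0.27, and wild type array 4 with transgenic array 1 at 0.33 and with transgenic array 2 at -0.46. Wild type array 1 and transgenic arrays 2 and 3 are also the arrays with the highest complex I and complex V means of their groups. Across the 80 genes, mean level and log2 fold change had a Spearman rho of 0.32, beside 0.09 across all named genes; genes are not independent replicates, and no test is attached.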
